A study of Mus musculus with 8 samples.

Results

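The genes described here are the transcription factor Nrf2 (encoded by Nfe2l2), its relative Nfe2l1, the repressors Keap1 and Bach1, the small Maf partners Maff, Mafg and Mafk, and the feedback genes Sqstm1 and Osgin1. They were taken by name, as every probe set that the platform annotation pairs with exactly 1 of these genes, which gave 12 probe sets for 9 of the 12393 genes on the array. Liver RNA was measured on 1 Affymetrix array per sample in 4 TrxR1/Gsr-null and 4 WT mice, all female, 4 weeks old and of strain background C57BL/6J, with no treatment given. Both deleted genes encode NADPH-dependent reductases, Txnrd1 the one that reduces cytosolic thioredoxin (TrxR1) and Gsr the one that reduces glutathione. The labels do not say how or in which cells either gene was inactivated, and they name each array as a biological replicate. The series asks about the Nrf2 response in livers without these reductases. No batch is named in the labels.

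Nrf2 is a basic leucine zipper (bZIP) transcription factor. Keap1 binds it and hands it to a ubiquitin ligase built on Cul3, so that it is degraded, and oxidants or electrophiles that modify Keap1 cysteines let Nrf2 accumulate. Nrf2 then pairs with a small Maf protein and binds antioxidant response elements (AREs) of its target genes, where Bach1, itself paired with a small Maf, competes as a heme-sensitive repressor. Most of this control acts on the Nrf2 protein rather than its transcript, and an expression array sees transcripts only.

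The AREs are the DNA letters that these factors read, so the member promoters were searched for the core of that element in the forms TGACNNNGC and TGAGNNNGC, on both strands, in the 250 bases before each annotated start (RefSeq sequences, build GRCm38.p6). At least 1 form was found for 6 of the 9 genes, in 9 of their 15 windows, against 23.0% of all 32851 windows. Of those 9 windows 3 are overlapping windows of Nfe2l1 that hold one and the same match. Among 35 genes known as Nrf2 targets, described below, 13 had a match, in 14 of their 43 windows. Taken singly, TGACNNNGC was in 10.2% of all windows and TGAGNNNGC in 14.4%. A match of such a short motif is a description and not a site, and no match was found for Keap1, Bach1 or Sqstm1 in these windows. The matches of 6 members are printed 5′ to 3′ on the strand of the gene to let them be compared, with the matched letters in capitals and up to 10 bases on either side.
Nfe2l2: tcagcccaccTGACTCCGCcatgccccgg
Nfe2l1: gggcgggcctGCACACTCAttggacttct
Maff: gggcgtctcaTGACTCTGCcactggaaag
Mafg: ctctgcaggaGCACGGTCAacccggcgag
Mafk: gatcccggaaGCGGTGTCAgtac
Osgin1: aggggcccctGCTGACTCAcgcttatgaa
In Nfe2l1, Mafg, Mafk and Osgin1 the match lies on the other strand, so the capitals are its reverse complement. These stretches are chr2:75704885-75704913 (minus strand), chr11:96830129-96830157 (minus strand), chr15:79346499-79346527 (plus strand), chr11:120633751-120633779 (minus strand), chr5:139791513-139791535 (plus strand) and chr8:119437038-119437066 (plus strand), in the order printed. Nfe2l1 and Maff have further matches, not printed. The Osgin1 match also holds TGACTCA, a motif known from AP-1 sites, which overlaps it and was found in 1 of the 15 member windows and in 4.46% of all windows.

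Values are log2 expression as deposited, after GCRMA, and differences are TrxR1/Gsr-null minus WT on that scale, with folds as powers of 2. The arrays had median values of 3.56 to 3.78. WT replicates 3 and 4 stood apart by their narrower spread, their interquartile ranges being 3.97 and 3.74, where those of the remaining 6 arrays were 4.31 to 4.44. The targeted genes were checked first. Gsr had log2 values of 6.02, 5.89, 5.82 and 6.31 in TrxR1/Gsr-null livers, against 7.03, 7.21, 7.21 and 7.20 in WT livers. Txnrd1 had 12.07, 12.01, 11.65 and 11.96 in TrxR1/Gsr-null livers, against 9.90, 9.93, 9.88 and 9.56 in WT livers. Gsr was thus lower and Txnrd1 higher in all TrxR1/Gsr-null livers (limma adjusted p = 0.003975 and 0.0001155). The labels do not give the deleted exons, and a probe set that lies elsewhere in the gene checks nothing. The 12 probe sets had to exceed a low-value limit of 3.38 in their mean or on at least 4 arrays, and all did. Of the 9 genes, 3 have 2 probe sets, and the brighter one over all arrays stands for the gene.

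Across the 9 genes the changes were small, and Bach1 was the only one called. A gene was called at a limma adjusted p below 0.05 over all 7534 genes tested. Of these, 4.47% were called higher and 2.15% lower, 6.62% in all, and of the 9 genes 1 was called higher and 0 lower. These shares are 337 and 162 genes, against 314 higher and 272 lower after a further quantile normalization, which set the median difference of all genes to -0.01 in place of 0.10. At an unadjusted limma p below 0.05, Bach1 and Keap1 were higher and Nfe2l2 lower, where 14.9% of all genes tested were higher and 7.92% lower. The differences of 7 members were positive and of 2 negative, where those of 4526 of all 7534 genes tested were positive and of 3008 negative. The median of the members was 0.38, against a median of 0.10 over all genes tested. Bach1, Keap1 and Mafk had no overlap between the groups, all with higher values in TrxR1/Gsr-null livers, as did 10.7% of all genes tested, with 5.84% lower and 16.6% without overlap in either direction. In simulated data with each gene's mean and residual spread, changes of 0.5, 1 and 2 log2 units were called in 2.77%, 41.7% and 87.7% of changed genes, so a member that was not called may still differ. The simulation changed 200 of the 7534 genes, where 499 were called in the data, so the shares in the real fit may differ.

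**Figure D1:**
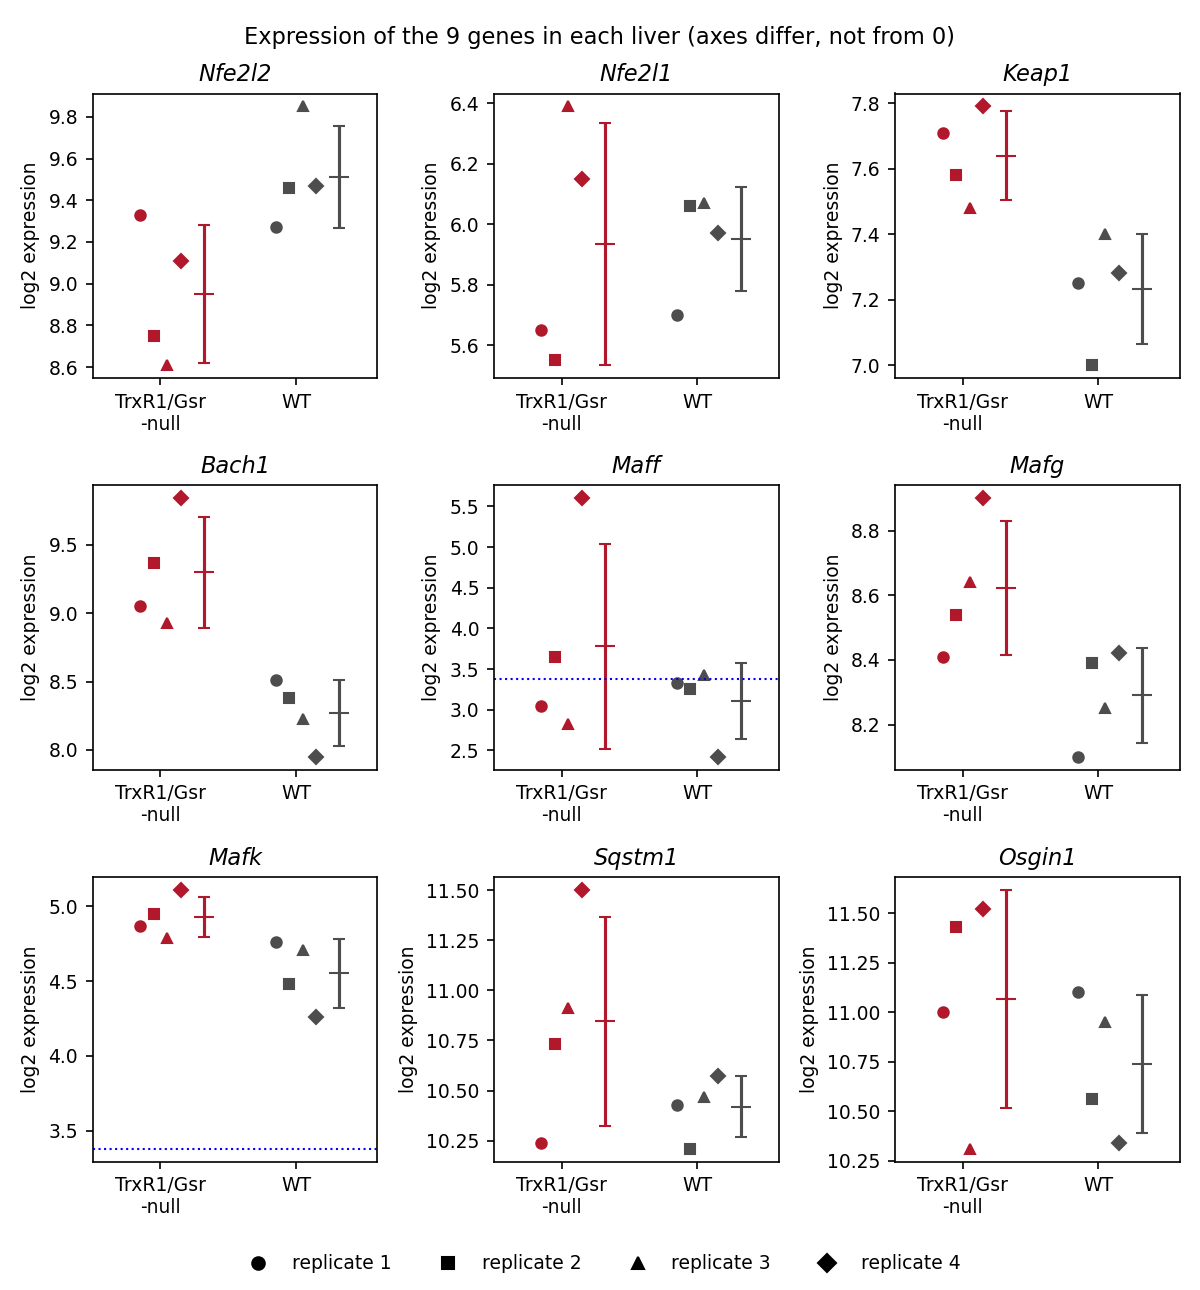
Log2 expression of the 9 genes at their brightest probe set in each TrxR1/Gsr-null (red, left) and WT (grey, right) liver, with the replicate shown by the symbol and the mean ± SD (n = 4) beside the points. Axes differ between panels, the dotted blue line is the low-value limit of 3.38, and the groups do not overlap for Bach1, Keap1 and Mafk.

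Bach1 encodes the repressor that competes with Nrf2 at AREs. Its brighter probe set had log2 values of 9.05, 9.37, 8.93 and 9.84 in TrxR1/Gsr-null livers, against 8.51, 8.38, 8.23 and 7.95 in WT livers. Every TrxR1/Gsr-null liver lay above every WT liver, with replicate 4 of the TrxR1/Gsr-null group the highest and replicate 4 of the WT group the lowest. The means were 9.30 ± 0.41 and 8.27 ± 0.24 (SD, n = 4 each), and Bach1 rose 2.041-fold, a log2 difference of 1.03 ± 0.24 (SE) with a 95% interval of 0.51 to 1.55 and a limma adjusted p of 0.02929. Of all genes tested, 4.938% had a higher difference. In bulk liver, more RNA per cell and a larger share of cells that express a gene cannot be told apart.

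The call of Bach1 was a narrow one. With 1 array left out in turn the difference stayed between 0.85 and 1.15, but the limma call was lost in 6 of 8 cases, with adjusted p of 0.051, 0.0843 and 0.0666 without TrxR1/Gsr-null replicates 1, 2 and 4 and of 0.0533, 0.0761 and 0.063 without WT replicates 2, 3 and 4. Without both WT arrays of narrower spread it was 0.85 (adjusted p = 0.131). Within replicates 1 and 2 the difference was 0.76, and within replicates 3 and 4 it was 1.30, neither called (limma adjusted p = 0.0681 and 0.112).

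The second Bach1 probe set did not show the same difference. It had log2 values of 3.89, 3.43, 3.45 and 3.66 in TrxR1/Gsr-null livers, against 3.92, 3.62, 3.12 and 3.32 in WT livers. The groups overlapped and 2 WT values lay below the limit of 3.38, and this probe set lay close to that limit. Its difference was 0.11 (95% interval -0.38 to 0.59, limma adjusted p = 0.8121 over 12470 probe sets, of which 6.17% were called and 15.7% had groups that did not overlap). The platform annotation ties the brighter Bach1 probe set to an expressed sequence tag and the dimmer one to a RefSeq transcript, and gives no positions. The brighter probe set moved 0.92 log2 units more than the dimmer one (exact permutation test, two-sided, p = 0.0286, adjusted p = 0.0857 over the 3 genes with a pair of probe sets), a comparison chosen after the values were seen. That exact p is the smallest this design gives, so 1 gene alone could not pass after adjustment over 3. With the mean of both probe sets Bach1 differed by 0.57 and was not called (adjusted p = 0.096).

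**Figure D2:**
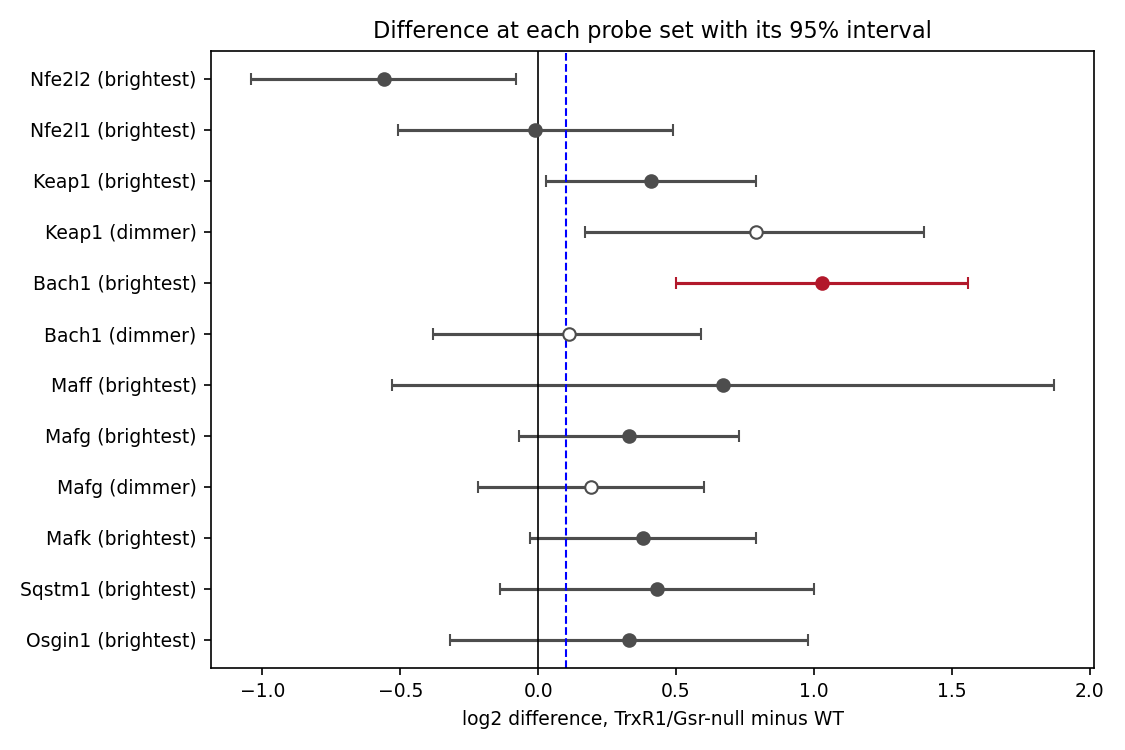
Log2 difference (TrxR1/Gsr-null minus WT) of the 12 probe sets with 95% intervals from the limma fit (n = 4 livers a group). Filled points are the brightest probe set of a gene, open points the dimmer one, red marks the only call, the dashed blue line is the median of all genes tested at 0.10, and the dimmer Bach1 probe set sits at 0.11 against 1.03 for the brighter.

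The sequence before the Bach1 start is shown because Bach1 is the only member called. The 250 bases lie at chr16:87698704-87698953 on the plus strand of GRCm38.p6 (RefSeq), are 69.2% G or C, and capitals mark 3 copies of GGGCGG, the GC box motif, searched on both strands and found in 32.7% of all windows.
Bach1: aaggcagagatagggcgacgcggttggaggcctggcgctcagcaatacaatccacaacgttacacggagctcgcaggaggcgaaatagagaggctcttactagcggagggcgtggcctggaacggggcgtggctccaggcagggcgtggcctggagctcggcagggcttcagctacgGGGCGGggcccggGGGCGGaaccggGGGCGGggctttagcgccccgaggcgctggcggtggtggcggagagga
GC boxes were in 10 of the 15 member windows, those of 8 of the 9 genes.

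Nfe2l2, the gene of Nrf2 itself, was not called in either direction. Its probe set had log2 values of 9.33, 8.75, 8.61 and 9.11 in TrxR1/Gsr-null livers, against 9.27, 9.46, 9.85 and 9.47 in WT livers. The groups overlapped by 1 liver, TrxR1/Gsr-null replicate 1, which exceeded WT replicate 1, and all other TrxR1/Gsr-null values lay below all WT values. The means were 8.95 ± 0.33 and 9.51 ± 0.24 (SD, n = 4 each), a difference of -0.56 with a 95% interval of -1.04 to -0.08, and it was not called (limma adjusted p = 0.1572). The difference was negative in all 20 alternative settings, from -0.80 to -0.32, and called in none (limma adjusted p from 0.0796 to 0.442).

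Nfe2l1 encodes an Nrf2 relative that is held at the endoplasmic reticulum and is known for restoring proteasome genes when the proteasome is impaired. It had log2 values of 5.65, 5.55, 6.39 and 6.15 in TrxR1/Gsr-null livers, against 5.70, 6.06, 6.07 and 5.97 in WT livers. The TrxR1/Gsr-null livers enclosed the WT range, with replicates 1 and 2 below it and replicates 3 and 4 above it. The difference was -0.01 with a 95% interval of -0.51 to 0.49 (limma adjusted p = 0.9846).

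Keap1, the adaptor that marks Nrf2 for degradation, had higher values in the TrxR1/Gsr-null livers at its brighter probe set but was not called. It had log2 values of 7.71, 7.58, 7.48 and 7.79 in TrxR1/Gsr-null livers, against 7.25, 7, 7.40 and 7.28 in WT livers. The groups did not overlap, although TrxR1/Gsr-null replicate 3 was only just above WT replicate 3. The difference was 0.41, 1.327-fold, with a 95% interval of 0.03 to 0.79 (limma adjusted p = 0.1881), and with array weights it was 0.50 and called (adjusted p = 0.0416). After quantile normalization the difference was 0.25 for Keap1 and 0.93 for Bach1.

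The dimmer Keap1 probe set lay near background. It had log2 values of 3.31, 3.38, 3.46 and 3.49 in TrxR1/Gsr-null livers, against 3.43, 2.74, 2.21 and 2.13 in WT livers. WT replicate 1 overlapped the TrxR1/Gsr-null livers and the other 3 WT livers and 1 TrxR1/Gsr-null liver lay below the limit of 3.38. The difference was 0.79 (limma adjusted p = 0.1302). This probe set passed the filter only by the rule of 4 arrays, with WT replicate 1 among them. Without WT replicate 1 it was called (limma adjusted p = 0.0205), but all WT values then lay below the limit. That call therefore rests on WT values at background.

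The 3 small Maf genes encode bZIP proteins with no activation domain of their own that pair with Nrf2, Nfe2l1 or Bach1. None was called. Mafg had log2 values of 8.41, 8.54, 8.64 and 8.90 in TrxR1/Gsr-null livers, against 8.10, 8.39, 8.25 and 8.42 in WT livers. Only the lowest TrxR1/Gsr-null value, of replicate 1, fell below a WT value, and the difference was 0.33 (95% interval -0.06 to 0.73, limma adjusted p = 0.3026). The second Mafg probe set gave 0.19 (95% interval -0.22 to 0.60, limma adjusted p = 0.5837).

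Mafk had log2 values of 4.87, 4.95, 4.79 and 5.11 in TrxR1/Gsr-null livers, against 4.76, 4.48, 4.71 and 4.26 in WT livers. The groups did not overlap, but the lowest TrxR1/Gsr-null value exceeded the highest WT value by little, and the difference of 0.38 had a 95% interval of -0.02 to 0.78 (limma adjusted p = 0.2461). Maff, the small Maf known to be induced by stress and inflammatory signals, had log2 values of 3.04, 3.65, 2.82 and 5.60 in TrxR1/Gsr-null livers, against 3.33, 3.26, 3.43 and 2.42 in WT livers. TrxR1/Gsr-null replicate 4 stood far above the other 7 livers, of which 5 lay below the limit of 3.38. Maff passed the filter by its mean and not by the rule of 4 arrays, and that mean exceeded the limit only with this liver. Its difference of 0.67 had a 95% interval of -0.53 to 1.86 (limma adjusted p = 0.4985) and was 0.06 without that liver.

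Sqstm1 encodes p62, an autophagy receptor that binds Keap1 and is itself known as an Nrf2 target. It had log2 values of 10.24, 10.73, 10.91 and 11.50 in TrxR1/Gsr-null livers, against 10.43, 10.21, 10.47 and 10.57 in WT livers. TrxR1/Gsr-null replicates 2, 3 and 4 lay above all WT livers, and replicate 1 lay among them. The spread was 0.52 in TrxR1/Gsr-null and 0.15 in WT livers (SD, n = 4 each), and the difference was 0.43 (95% interval -0.14 to 0.99, limma adjusted p = 0.3585). Without TrxR1/Gsr-null replicate 4 it was 0.21.

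Osgin1 encodes an oxidative stress-induced growth inhibitor, also known as an Nrf2 target. It had log2 values of 11.00, 11.43, 10.31 and 11.52 in TrxR1/Gsr-null livers, against 11.10, 10.56, 10.95 and 10.34 in WT livers. The groups overlapped, with TrxR1/Gsr-null replicates 2 and 4 above all WT livers and replicate 3 the lowest of all 8, and the difference was 0.33 (95% interval -0.32 to 0.97, limma adjusted p = 0.5449). Without TrxR1/Gsr-null replicate 3 it was 0.58 and without replicate 4 of that group 0.18.

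TrxR1/Gsr-null replicate 4 thus held the highest of all 8 values for 7 of the 9 genes, all but Nfe2l2 and Nfe2l1. Of these 7, Maff passed the low-value filter only through this array. Over all genes tested, this array was the highest for 13.02%. Among the 4 TrxR1/Gsr-null arrays alone it was the highest for 25.14% of all genes tested and for the same 7 members. Since these 7 were picked for that value, their differences without it had to be lower, and they were 0.85 for Bach1, 0.36 for Keap1, 0.32 for Mafk, 0.24 for Mafg, 0.21 for Sqstm1, 0.18 for Osgin1 and 0.06 for Maff, and no member was then called by limma. What sets this liver apart was not tested.

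**Figure D3:**
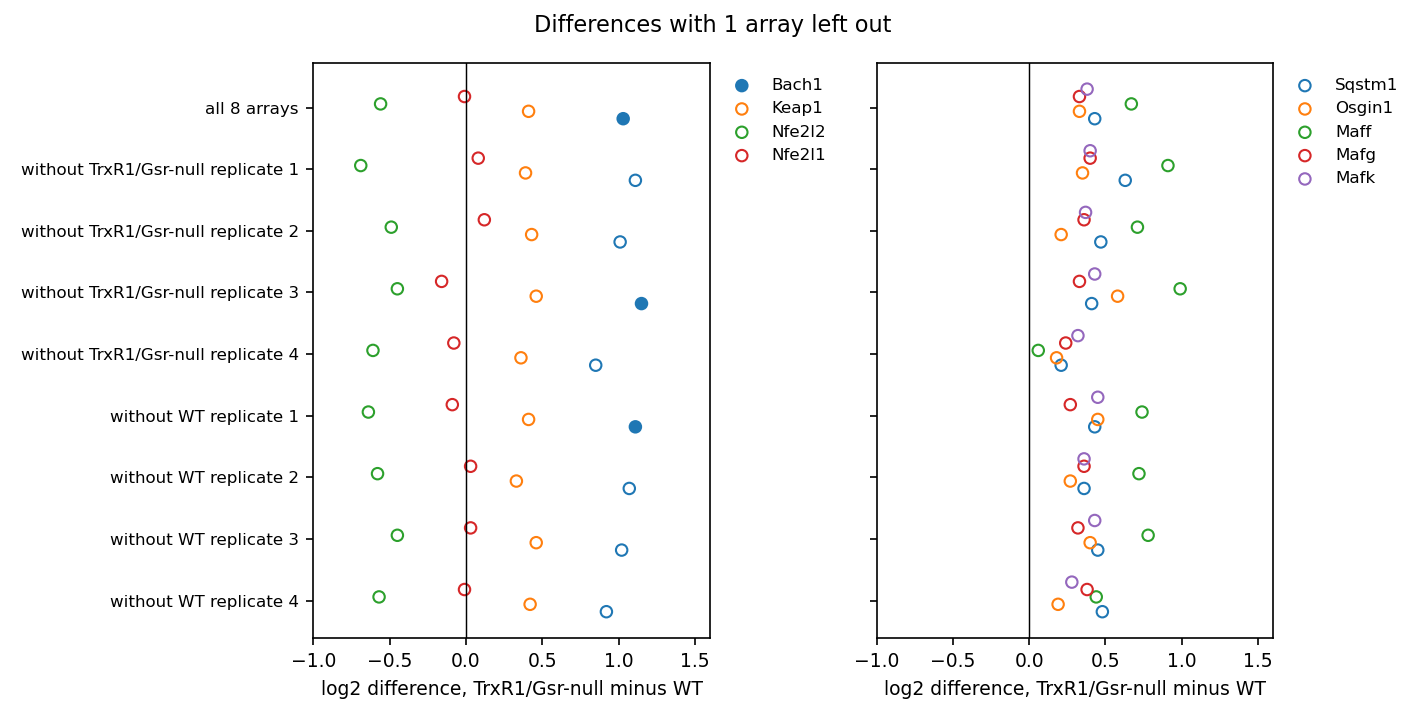
Log2 difference (TrxR1/Gsr-null minus WT) of the 9 genes with all 8 arrays and with each array left out in turn, with filled symbols for a limma adjusted p below 0.05. Bach1 stays between 0.85 and 1.15 but is called without 2 of the 8 arrays, and Sqstm1, Osgin1 and Maff fall to 0.21, 0.18 and 0.06 without TrxR1/Gsr-null replicate 4.

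Whether members changed by unequal amounts was asked within arrays, which removes any shift common to an array. The value of one gene minus that of another was taken in each liver for 7 pairs and compared between the groups with an exact permutation test over the 8 livers, two-sided, whose smallest p is 0.0286. Nfe2l2 minus Keap1, the factor against its inhibitor, was 1.62, 1.17, 1.13 and 1.31 in TrxR1/Gsr-null livers, against 2.01, 2.45, 2.45 and 2.19 in WT livers. The groups did not overlap, with a mean change of -0.97 between them (exact p = 0.0286, adjusted p = 0.10 over the 7 pairs). Nfe2l2 minus Bach1, the activator against its competitor, was 0.28, -0.62, -0.32 and -0.74 in TrxR1/Gsr-null livers, against 0.75, 1.07, 1.62 and 1.52 in WT livers. The groups again did not overlap, with a mean change of -1.59 (exact p = 0.0286, adjusted p = 0.10). This pair used the brighter Bach1 probe set, and a pair with the dimmer one, whose own difference was 0.11, was not tested. With probe sets averaged the change was -1.13 (exact permutation test, adjusted p = 0.10). Since values of different probe sets share no scale, only the change between groups can be read, not which transcript is more abundant.

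The other pairs overlapped. Nfe2l2 minus Nfe2l1 differed by -0.55 (exact p = 0.1143, adjusted p = 0.2667). Mafg minus Mafk differed by -0.05, Mafg minus Maff by -0.34, Maff minus Mafk by 0.29 and Sqstm1 minus Keap1 by 0.02 (exact p from 0.7143 to 0.9714, adjusted p = 0.9714 each). After adjustment 0 of the 7 pairs passed, 2 of them at an unadjusted exact p of 0.0286, the smallest this design gives, and with so few pairs at that minimum none could pass.

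**Figure D4:**
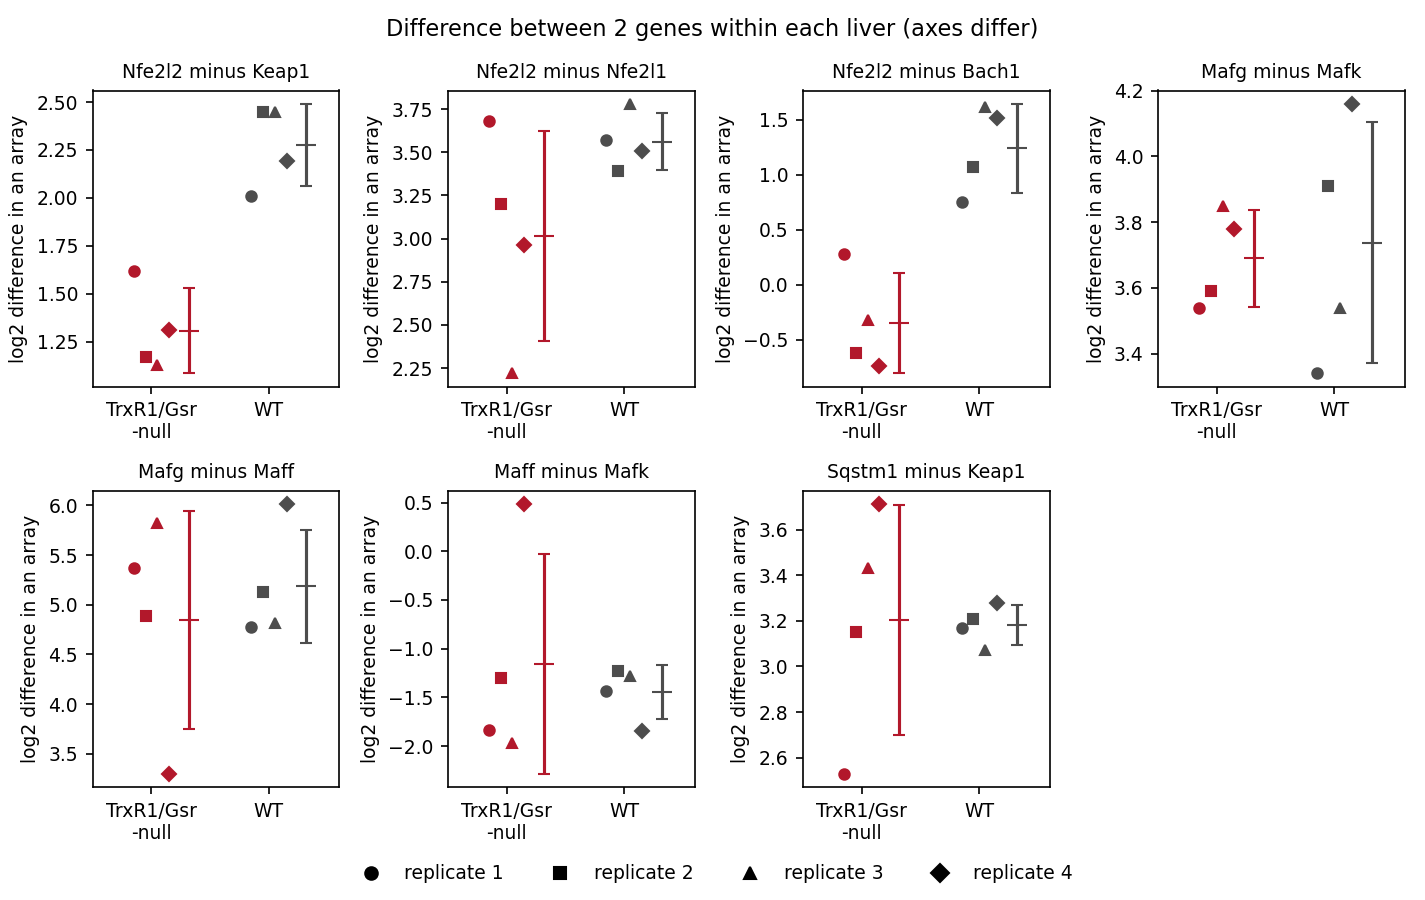
Difference in log2 value between 2 genes within each TrxR1/Gsr-null (red, left) and WT (grey, right) liver for 7 pairs, with the replicate shown by the symbol and the mean ± SD (n = 4) beside the points. Axes differ between panels, each gene stands at its brightest probe set, and the groups do not overlap for Nfe2l2 minus Keap1 and Nfe2l2 minus Bach1.

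The same livers showed large rises of genes that Nrf2 is known to drive. Of 40 genes on a list of such targets, chosen with earlier results of these data known, 35 were on the array and 34 were tested, of which 25 were called higher and 0 lower by limma, with a median difference of 1.82, against 4.47% and 2.15% of all genes tested. The 4 with the smallest adjusted p were Aox1, an aldehyde oxidase (log2 difference 4.04), Cbr3, a carbonyl reductase (8.08), Gpx2, a glutathione peroxidase (5.70), and Nqo1, a quinone reductase (4.59). Cbr3 and Gpx2 each had 2 WT values below the limit of 3.38, so the sizes of their differences are uncertain. Slc7a11, a cystine carrier, was not tested because it failed the low-value filter, with means of 4.45 in TrxR1/Gsr-null and 2.23 in WT livers. The members that are themselves described as targets, Sqstm1 and Osgin1, had differences of 0.43 and 0.33. Whether the members differ from this list was not tested.

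The machinery around the members was followed through 8 further lists, which hold 84 other tested genes, of which 3 were called higher and 2 lower by limma, with a median difference of 0.03, against 4.47% called higher, 2.15% called lower and a median of 0.10 over all genes tested. At an unadjusted limma p below 0.05, 13 of the 84 were higher and 7 lower, against 14.9% and 7.92% of all genes tested. Of 14 tested genes that ubiquitinate or degrade Nrf2, 0 were called, with 1 higher and 1 lower at an unadjusted limma p below 0.05. Cul3, the scaffold of the Keap1 ligase, averaged 9.75 ± 0.10 in TrxR1/Gsr-null and 9.45 ± 0.19 in WT livers (SD, n = 4 each, limma adjusted p = 0.339). Cul1, the scaffold of the ligase that degrades Nrf2 without Keap1, averaged 7.30 ± 0.29 in TrxR1/Gsr-null and 7.41 ± 0.18 in WT livers (limma adjusted p = 0.7889). Of 9 other Keap1-binding proteins 0 were called, with 1 higher and 1 lower unadjusted. Dpp3, a peptidase that binds Keap1, averaged 6.83 ± 0.06 in TrxR1/Gsr-null and 6.76 ± 0.29 in WT livers (limma adjusted p = 0.8575).

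Of 9 tested bZIP partners and competitors, 1 was called higher, Bach2, the relative of Bach1 known from lymphocytes. Bach2 had log2 values of 6.35, 6.32, 5.87 and 6.34 in TrxR1/Gsr-null livers, against 5.54, 5.2, 5.60 and 5.61 in WT livers. The groups did not overlap, and it rose 1.659-fold (limma adjusted p = 0.04783), a call that was lost without any 1 of 7 arrays (adjusted p up to 0.137), with both scalings and with the replicate block (adjusted p = 0.0574).

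Of 11 coactivators and corepressors 1 was called lower and 0 higher. Gadd45gip1, a mitochondrial ribosome protein that has also been described as binding Nrf2, fell to 7.18 ± 0.22 in TrxR1/Gsr-null livers, against 8.45 ± 0.18 in WT livers (SD, n = 4 each, limma adjusted p = 0.00338). With its probe sets averaged the difference was -0.62 in place of -1.26 (limma adjusted p = 0.0204). Within replicates 3 and 4 Gadd45gip1 was not called (limma adjusted p = 0.0705). Of 14 kinases upstream of Nrf2 or p62, Prkca, a protein kinase C, was called higher, at 4.46 ± 0.47 in TrxR1/Gsr-null and 3.13 ± 0.38 in WT livers, with 3 WT values below the limit of 3.38 (limma adjusted p = 0.01898). Ulk1, the kinase that starts autophagy, was called lower, at 7.56 ± 0.60 in TrxR1/Gsr-null and 9.37 ± 0.53 in WT livers (limma adjusted p = 0.0116), but not without WT replicates 3 and 4 (adjusted p = 0.0772) or within replicates 1 and 2 (adjusted p = 0.0753). Prkca was not called without TrxR1/Gsr-null replicate 2 or WT replicate 3 (adjusted p = 0.0612 and 0.0595), without WT replicates 3 and 4 (0.109), within replicates 1 and 2 or 3 and 4 (0.0978 and 0.071), or with its probe sets averaged, where it rose 1.6-fold in place of 2.51-fold (0.0506).

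Of 15 autophagy receptors and Atg8 proteins, the relatives and partners of p62, 0 were called, with 2 higher and 0 lower at an unadjusted limma p below 0.05. Nbr1, a receptor with a domain plan like that of p62, averaged 10.57 ± 0.19 in TrxR1/Gsr-null and 10.76 ± 0.23 in WT livers (limma adjusted p = 0.5759). Of 9 genes that process Nfe2l1, 0 were called, with 2 higher and 1 lower unadjusted. Among them Ngly1, which removes its sugars, averaged 9.44 ± 0.12 in TrxR1/Gsr-null and 8.71 ± 0.42 in WT livers (limma adjusted p = 0.08338). Vcp, the segregase that pulls Nfe2l1 from the membrane, averaged 11.34 ± 0.11 in TrxR1/Gsr-null and 11.08 ± 0.26 in WT livers (limma adjusted p = 0.4262).

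Of 6 tested genes that control Bach1 or answer to it, 1 was called higher and 0 lower, and 4 were higher and 0 lower at an unadjusted limma p below 0.05. Of all genes tested, 4.47% were called higher and 2.15% lower, and 14.9% were higher and 7.92% lower unadjusted. The median difference of the 6 genes was 0.85, against 0.10 over all genes tested. Alas1, the first enzyme of heme synthesis, had log2 values of 10.98, 10.74, 9.88 and 11.04 in TrxR1/Gsr-null livers, against 8.96, 8.10, 9.01 and 8.69 in WT livers. The groups did not overlap, and it rose 3.917-fold (limma adjusted p = 0.004283). With its probe sets averaged Alas1 rose 2.66-fold (limma adjusted p = 0.0144), and within replicates 3 and 4 it was not called (limma adjusted p = 0.098). Hmox1, heme oxygenase and the best known Bach1-repressed gene, had 3.87, 4.46, 4.64 and 8.05 in TrxR1/Gsr-null livers, against 3.62, 3.44, 3.29 and 4.88 in WT livers. Replicate 4 was the highest of each group, the groups overlapped, and the difference of 1.45 was not called (limma adjusted p = 0.3136). Without TrxR1/Gsr-null replicate 4 it was 0.52. Fbxo22, a receptor for Bach1 degradation, averaged 10.48 ± 0.22 in TrxR1/Gsr-null and 9.77 ± 0.39 in WT livers (limma adjusted p = 0.09382).

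**Figure D5:**
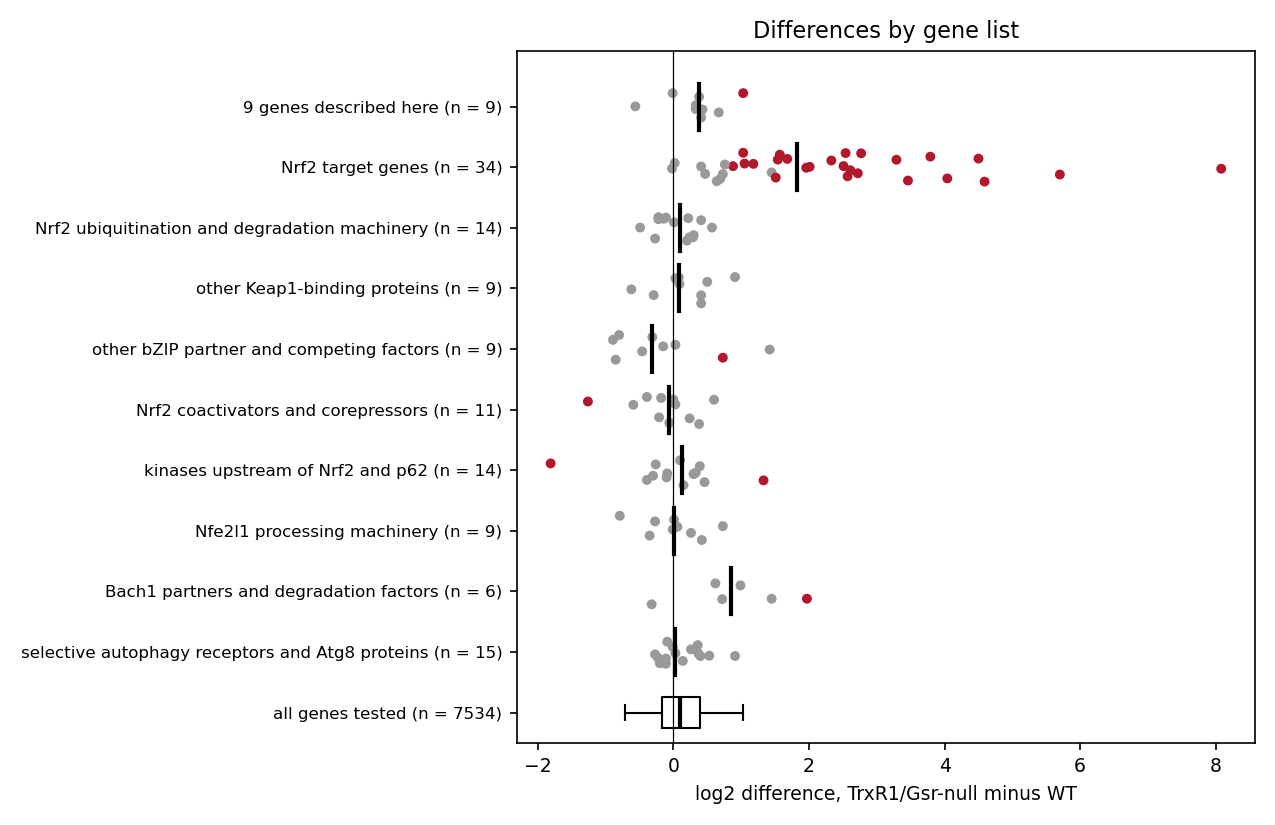
Log2 differences (TrxR1/Gsr-null minus WT) of tested genes by list, red for a limma adjusted p below 0.05, with list medians as black bars and, for all 7534 genes tested, a box of quartiles with whiskers at the 5th and 95th percentiles. The 9 genes described here have a median of 0.38, the Nrf2 targets 1.82 and all genes tested 0.10.

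Markers of the liver's cell types were set beside these results. Hepatocyte markers, 6 of 6 tested, had summed levels of 15.23 to 15.76 (log2) in TrxR1/Gsr-null and 15.84 to 16.08 in WT livers, without overlap, and 0 were called. Kupffer cell markers, 6 of 6 tested, had 11.69 to 12.30 in TrxR1/Gsr-null and 11.96 to 12.76 in WT livers, and 0 were called. Of lymphocyte markers Cd79a, Cd3e, Cd3d and Ighm were below the limit and 2 of 6 were tested, with sums of 7.51 to 7.99 in TrxR1/Gsr-null and 7.41 to 7.71 in WT livers. Of erythroid markers 3 were on the array and 2 tested, with sums of 6.18 to 7.23 in TrxR1/Gsr-null and 6.49 to 7.33 in WT livers, and 0 of either list were called. Neutrophil markers (2 of 5 on the array tested) had sums of 6.39 to 6.92 in TrxR1/Gsr-null and 5.23 to 6.46 in WT livers, 0 called. Endothelial sums were 10.57 to 11.01 in TrxR1/Gsr-null and 10.74 to 11.06 in WT livers, and stellate cell sums 11.27 to 11.69 in TrxR1/Gsr-null and 11.52 to 11.91 in WT livers, with 6 and 5 markers tested and 0 called. Of 2 tested cholangiocyte markers Epcam was called higher (limma adjusted p = 0.04098), with all 4 WT values and 1 TrxR1/Gsr-null value below the limit of 3.38. The list had sums of 5.24 to 5.61 in TrxR1/Gsr-null and 5.28 to 5.82 in WT livers, and Krt19, Krt7 and Cftr were below the limit. The part of cell composition in the values of the members was not tested.

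For each member the 3 genes with the most similar pattern over the 8 arrays were named by Pearson correlation, among 7425 tested genes, as a description that includes the difference between groups. The highest of so many correlations over 8 arrays are high by selection, and whether any exceeds what chance gives was not tested. Bach1 was most like Gstt2, Tmem51 and Tanc1 (r = 0.99, 0.988 and 0.986). Keap1 was most like Sh3d19, Alas1 and Bach2 (r = 0.964, 0.963 and 0.961). Nfe2l2 was most like Eif4h, Mbtps1 and Vegfa (r = 0.928, 0.903 and 0.892), and Nfe2l1 like Os9, Uri1 and Zbtb2 (r = 0.952, 0.943 and 0.923).

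Among the others, Maff was most like Chac1, Kctd2 and Ndel1 (r = 0.978, 0.977 and 0.975). These r values of Maff rest largely on its single high value, that of TrxR1/Gsr-null replicate 4. Sqstm1 was most like Gsto1, Ypel5 and Zfand2a (r = 0.982, 0.969 and 0.967), and Osgin1 like Hook2, Rae1 and Zmat3 (r = 0.957, 0.937 and 0.919). Mafg was most like Pafah2, Sgk2 and Pla2g7 (r = 0.938, 0.93 and 0.924), and Mafk like Trrap, Cptp and Cd276 (r = 0.968, 0.967 and 0.967).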

How the data were processed

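Liver RNA of 4 TrxR1/Gsr-null and 4 WT mice was measured on 1 array each, grouped by the sample titles. The deposited table holds log2 values for 22690 probe sets, made by the authors with GCRMA per the submitters' processing notes (no version or setting is given there). Their range, 0.53 to 14.61, was the basis for taking the deposited values as log2. The number of arrays limits the precision.

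Probe sets with 1 gene symbol (20380, of which 20351 matched RefSeq gene identifiers of GRCm38.p6) were used for genes. Several symbols (691), none (1555) and controls (64) were left out of the gene tests. The brightest probe set stood for a gene, _x_at types set aside where another existed. Genes whose mean was in the lowest 40% were dropped, except where 4 or more arrays lay over that limit. The other probe sets were tested in a fit of 12470 probe sets past the same limit.

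The groups' difference was fitted in R 4.3.3 by limma 3.58.1 (lmFit, eBayes, two-sided, Benjamini-Hochberg over all genes tested). The fit was tested on simulated data (20 runs of 7534 genes, 200 changed), with 4.8% false calls. The genes to be named were all members, both targeted genes, and the 3 genes most correlated with each member (clone and predicted names passed over). Of each list they were the called genes of smallest adjusted p, up to 4 in a direction, and any of its first 3 as written that were uncalled. Not all of these uncalled genes are named in the text. For the coactivators and corepressors and for the kinases only called genes are named. Slc7a11, Epcam, the bZIP genes of the closing section, and the comparison of probe sets of 1 gene, were chosen after values were seen. The members and lists were chosen with earlier results of these data known.

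The main fit did not pair the samples. Only the replicate block, an alternative setting, took the replicate numbers of the titles as pairs. Deviations from the group means correlated at 0.214 to 0.374 between same-numbered arrays. Other numbers within replicates 1 and 2 or 3 and 4 correlated as much (mean 0.279 against 0.283), so these correlations do not show that equal numbers are pairs. Alternatives were the filter, the scaling, the variance model, the probe sets per gene, the replicate block, and left-out arrays.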

Additional observations from a re-analysis of the deposited data

How the results depend on the processing

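Of the 9 genes, all but Nfe2l1 kept their direction in every one of the 20 alternative settings in which they were tested. Bach1 was positive in all 20 (0.57 to 1.30) and called in 10, and the only other call was that of Keap1 with array weights (adjusted p = 0.0416). With the replicate block Bach1 was called (adjusted p = 0.0435), and the block changed no call of another member and, of the list genes in the text followed through the settings, only that of Bach2. The number of members called higher was 2 with array weights, and 0 with probe sets of a gene averaged, without WT replicates 3 and 4, within replicates 1 and 2 and within replicates 3 and 4. It was 0 to 1 with 1 array left out. The number of their probe sets called was 2 with array weights, 0 without WT replicates 3 and 4 and within replicates 1 and 2 or 3 and 4, and 0 to 2 with 1 array left out. The count of 2 with an array left out arose without WT replicate 1, through the dimmer Keap1 probe set near background. Genes of the 8 further lists were called 7 higher and 5 lower with array weights, 1 and 1 without WT replicates 3 and 4, 0 and 1 within replicates 3 and 4, 5 higher with probe sets averaged and with the split of the replicates as a block, 1 lower within replicates 1 and 2, and 1 to 4 higher with 1 array left out. Directions turned only where differences were small. Nfe2l1 was 0.06 without WT replicates 3 and 4, 0.26 within replicates 3 and 4 and -0.16 to 0.12 with 1 array left out. The dimmer Bach1 probe set was -0.08 with array weights, -0.17 without WT replicates 3 and 4, -0.11 within replicates 1 and 2 and -0.02 to 0.25 with 1 array left out. Mafg minus Mafk was 0.01 after quantile normalization, 0.07 without WT replicates 3 and 4 and -0.18 to 0.09 with 1 array left out. Sqstm1 minus Keap1 was -0.17 with probe sets averaged and -0.15 to 0.24 with 1 array left out, Mafg minus Maff -0.66 to 0.18 and Maff minus Mafk -0.26 to 0.56. The cause was not tested for any of these. With the lowest 60% left out, Maff and Mafk were not tested. Over all genes, calls numbered 337 higher and 162 lower, and 162 to 647 higher and 30 to 428 lower in the alternatives. Within-array pairs past the threshold numbered 0 in the settings tried, but with the replicate block and without WT replicates 3 and 4 the smallest exact p is above 0.05, so those settings say nothing about the pairs. Nrf2 targets called higher numbered 21 to 27.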

Other observations

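The 9 tested genes of the list of other bZIP factors were set beside the finding that TrxR1/Gsr-null replicate 4 held the highest values of 7 members, after their values were seen. This liver was the highest of all 8 for 4 of the 9, Atf3, Jun, Atf4 and Cebpb, against 13.02% of all genes tested. It was also the highest for 14 of 34 Nrf2 targets and 2 of 6 genes around Bach1. For these targets TrxR1/Gsr-null replicates 1, 2 and 3 were the highest for 5, 11 and 3, and WT replicate 1 for 1. Most of the targets were higher in the TrxR1/Gsr-null group. Among its 4 arrays alone, replicate 4 was the highest for 25.14% of all genes tested. The counts for TrxR1/Gsr-null replicate 4 were 2 of 11 coactivators and corepressors, 2 of 14 kinases and 2 of 15 autophagy genes. They were 1 of 14 for genes that degrade Nrf2, and 0 of 9 each for Keap1-binding proteins and genes that process Nfe2l1. Atf3, a stress-induced bZIP repressor, had log2 values of 3.39, 3.71, 3.88 and 6.14 in TrxR1/Gsr-null livers, against 3.06, 3.23, 2.59 and 2.55 in WT livers (limma adjusted p = 0.1374). All 4 WT values of Atf3 lay below the limit of 3.38, so the size of its difference is uncertain. Jun, a subunit of AP-1, had 5.01, 5.08, 4.84 and 7.45 in TrxR1/Gsr-null livers, against 5.60, 6.40, 4.83 and 5.44 in WT livers (limma adjusted p = 0.985). Atf4, a factor of the integrated stress response, had 8.21, 8.35, 8.75 and 10.10 in TrxR1/Gsr-null livers, against 8.95, 8.73, 9.21 and 9.76 in WT livers (limma adjusted p = 0.7013). The other AP-1 genes of the list peaked in WT livers. Fos had 4.44 in TrxR1/Gsr-null replicate 4, against 7.13 in WT replicate 2, Junb had 4.90, against 6.69 in WT replicate 2, and Jund had 8.74, against 9.95 in WT replicate 4.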
